A study of Mus musculus with 12 samples.

Results

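The genes described here encode the proteins of the mitochondrial ribosome (mitoribosome) of the mouse. They were taken from the deposited expression table by symbol, as every row named Mrpl or Mrps followed by a number and at most 1 letter. That gave 77 of 24341 rows, 48 named for the large subunit (Mrpl) and 29 for the small subunit (Mrps). RNA sequencing was done on preadipocytes from adipose tissue of C57Bl/6 mice, immortalised with SV40, in 4 groups of 3 libraries. Aclyf/f preadipocytes and Aclyf/f adipocytes carried a floxed Acly gene, and Acly-/- preadipocytes and Acly-/- adipocytes lacked it; Acly encodes ATP citrate lyase, the cytosolic enzyme that turns citrate into acetyl-CoA. All cells were kept in DMEM with 10% FBS; preadipocytes were collected on day 0, and adipocytes 4 days after a standard adipogenic cocktail that included rosiglitazone, so both adipocyte groups share that agent and both genotypes share the SV40 immortalisation. How Acly was deleted, whether a genotype is 1 clone or several, and whether the 3 libraries of a group come from separate cultures are points the labels leave out, so p-values measure the spread between these libraries, which may be technical.

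The mitoribosome translates the few proteins encoded by mitochondrial DNA, all of them subunits of the respiratory chain or of ATP synthase. Its proteins are encoded in the nucleus, made in the cytosol and imported, and they assemble on ribosomal RNA made inside the organelle. Many are counterparts of bacterial ribosomal proteins, while others are found in mitochondria alone. White preadipocytes gain mitochondria as they become adipocytes, and they need the mitoribosome to make the respiratory chain.

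Levels are given in FPKM, which scales the fragments of a gene to its transcript length and to the depth of the library, and are mean ± SD with n = 3 libraries unless each library is listed. No count was available here, but steps between low FPKM values placed the depth of the libraries within 1.93-fold of the shallowest. Acly was at 86.9 ± 2.33 FPKM with and 12.1 ± 0.309 without Acly in preadipocytes, and 754 ± 52.5 with and 12.4 ± 1.17 without Acly in adipocytes; which exons were deleted is not stated, so reads from the remaining exons may count. The summed level of 8 adipocyte markers (7 of them reaching 1 FPKM in adipocytes) was 580 to 595 FPKM with and 241 to 278 without Acly in preadipocytes, against 10129 to 10868 with and 5892 to 7328 without it in adipocytes. Among them Adipoq, the adipokine adiponectin, was at 544 ± 7.05 FPKM in adipocytes with Acly and 60.7 ± 1.24 in those without, and Lep was at the floor of the table, 0.01 FPKM, in every library. The summed level of 6 preadipocyte markers was 641 to 744 FPKM with and 834 to 1155 without Acly in preadipocytes, and 134 to 199 with and 692 to 738 without it in adipocytes; 3 or 4 of the 6 reached 1 FPKM in a group. The leukocyte markers Ptprc and Itgam were at the floor in all 12 libraries, the summed level of the 8 leukocyte markers in the table was 30.6 to 36.3 FPKM in Acly-/- adipocytes and 2.5 to 7.62 in the other groups, and the brown adipocyte markers summed to at most 0.174 FPKM in any library. Acly-/- preadipocyte library 3 stood apart, with 15.5% of its summed FPKM in its 10 most abundant rows, against 6.21% to 9.07% in the other 11 libraries.

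All 77 members were expressed, and all reached 1 FPKM in at least 3 of 12 libraries, the limit for entering the test. Together they took 0.571% ± 0.0233 (with Acly) and 0.582% ± 0.0323 (without) of the summed FPKM of preadipocytes, and 0.887% ± 0.03 (with) and 0.744% ± 0.0241 (without) of that of adipocytes. Both adipocyte groups thus lay above both preadipocyte groups, with every Acly-/- adipocyte library (0.72% to 0.768%) below every Aclyf/f adipocyte library (0.867% to 0.922%). The 5 members with the highest mean level per length over the 12 libraries were Mrpl33, Mrps21, Mrpl52, Mrpl30 and Mrpl13, at 184, 159, 136, 119.7 and 111 FPKM. The 5 lowest were Mrpl57, Mrpl1, Mrpl19, Mrpl41 and Mrpl17, at 11.2, 11.2, 8.53, 7.73 and 6.87 FPKM. Transcripts of one complex thus differed in level by more than an order of magnitude. Neighbours at the top of that order were not separated: Mrps21 spanned 140.4 to 192 FPKM over the 12 libraries and Mrpl33 141 to 239 FPKM. The ratio of the summed FPKM of Mrpl rows to that of Mrps rows was 1.78 ± 0.00516 with and 1.74 ± 0.0141 without Acly in preadipocytes, and 1.65 ± 0.0598 with and 1.74 ± 0.00963 without it in adipocytes.

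**Figure D1:**
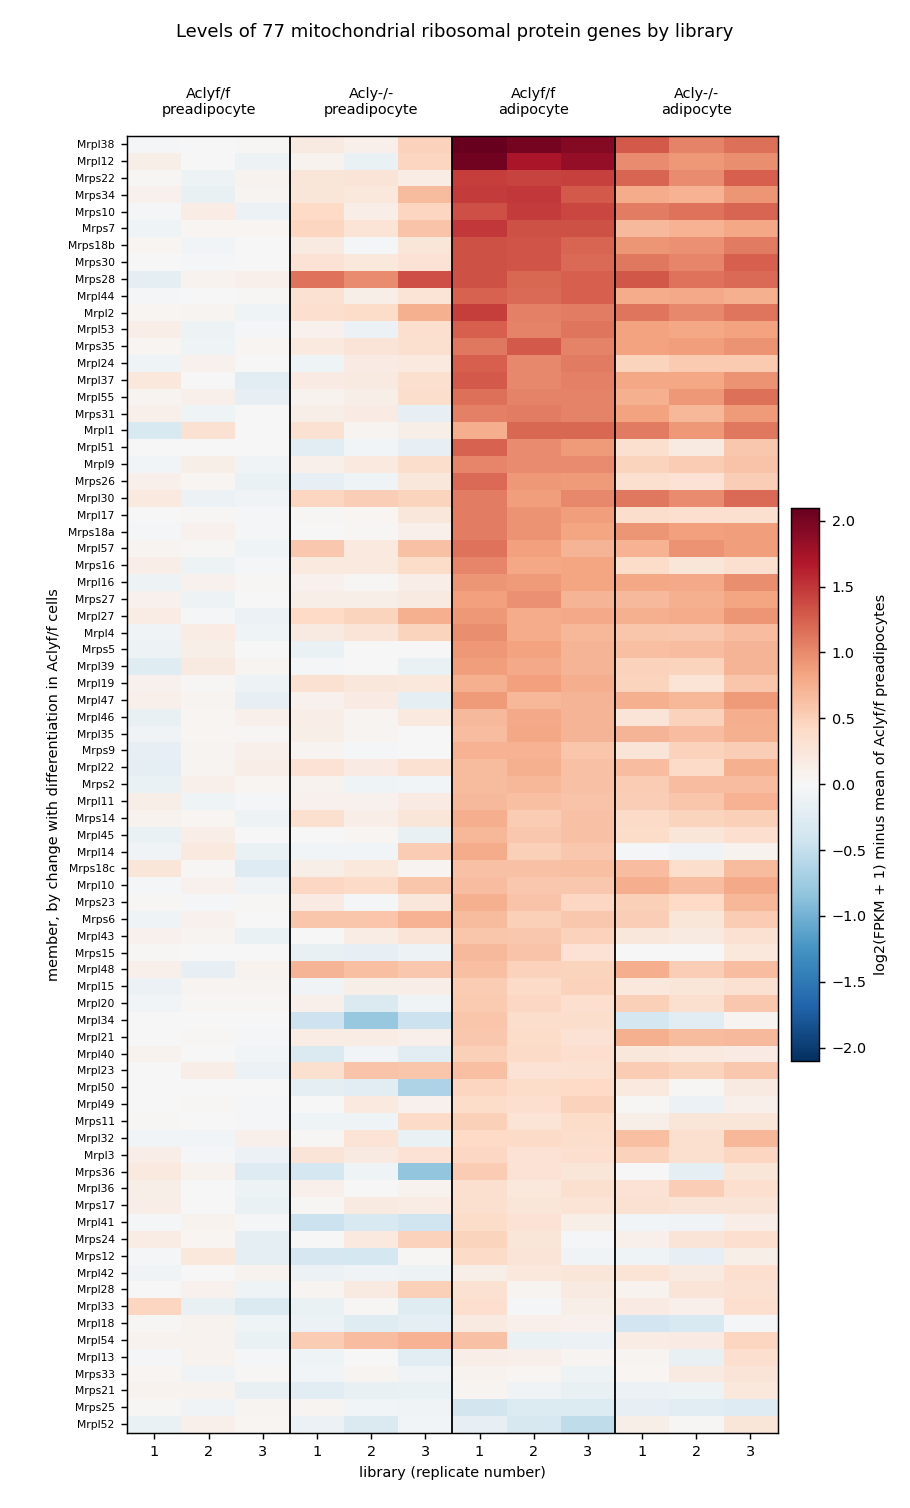
Level of each of the 77 members (rows, ordered by the change with differentiation in Aclyf/f cells) in each of 12 libraries (columns), as log2(FPKM + 1) minus the mean of the 3 Aclyf/f preadipocyte libraries. Most rows are red in Aclyf/f adipocytes and paler in Acly-/- adipocytes, Mrps28 is already red in Acly-/- preadipocytes, and Mrpl52 and Mrps25 at the foot are blue in Aclyf/f adipocytes.

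Most mitoribosomal transcripts were higher after differentiation with Acly intact. Comparing Aclyf/f adipocytes with Aclyf/f preadipocytes, 65 members rose and 2 fell at an adjusted p under 0.05 (limma on log2(FPKM + 1), Benjamini-Hochberg over 11777 genes), which is 67 of 77 (87%). Of all genes tested, 72.5% were called, 36.5% higher and 36% lower, so more members were called than the background share and nearly all of them in 1 direction. The median log2 fold change was 0.66 over members and 0.00 over all genes tested, and 67 members had all 3 adipocyte libraries above all 3 preadipocyte libraries, as did 37.9% of all genes tested. Both subunits took part, with 42 Mrpl genes higher and 1 lower of 48, and 23 Mrps genes higher and 1 lower of 29. In 19 members the rise was at least 1 on the log2 scale. Adipocyte markers summed to more and preadipocyte markers to less in the same comparison, and their part in the result was not tested; in these bulk samples a change in the number of cells of a type and a change in RNA per cell cannot be told apart.

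Mrpl38 (chr11:116131817-116138868, minus strand, mm10), a protein of the central protuberance of the large subunit with no bacterial counterpart, had the largest rise of the 77. It was at 15.3, 15.8 and 16.1 FPKM in the Aclyf/f preadipocyte libraries and at 76.7, 66.1 and 62.4 FPKM in the Aclyf/f adipocyte libraries, so the groups were far apart. The mean rose 4.35-fold (log2 fold change 2.05, SE 0.11, adjusted p = 6.26e-10 by limma). Mrpl12 (chr11:120484669-120488754, plus strand), the counterpart of the bacterial stalk protein that recruits translation factors and in human cells also a partner of the mitochondrial RNA polymerase, followed. Its levels were 52.4, 48.1 and 44.5 FPKM before and 200.3, 161 and 176 FPKM after differentiation, with no overlap. It rose 3.71-fold (log2 fold change 1.87, SE 0.13, adjusted p = 1.05e-08 by limma). In the small subunit Mrps22 (chr9:98588730-98601679, minus strand), a mitochondria-specific protein mutated in human mitochondrial disease, had the largest rise. It went from 14.5, 13.2 and 15.1 FPKM to 40.9, 39.7 and 40.1 FPKM, a 2.81-fold rise between groups that did not overlap (log2 fold change 1.43, SE 0.08, adjusted p = 1.65e-09 by limma). Mrps34, also a mitochondria-specific protein and a human disease gene, went from 28.5, 23.9 and 27.8 FPKM to 75.9, 76.5 and 66.5 FPKM (2.73-fold, limma adjusted p = 7.54e-08). Exons of Mapk8ip3 on the opposite strand cover 63.4% of the Mrps34 exons and exons of Nme3 on the same strand 37%, and since the handling of strand is not stated, reads of these genes could not be told apart there. Mrps10, a small subunit protein kept from bacteria, went from 22.4, 25.8 and 21.2 FPKM to 60.2, 65.8 and 62.9 FPKM (2.72-fold, limma adjusted p = 9.82e-09). In all 5 the groups did not overlap, and each call held in every alternative processing tried and with any 1 of the 12 libraries left out.

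The other 14 members with a rise of at least 1 on the log2 scale came from both subunits. Among large subunit proteins kept from bacteria they were Mrpl2, which lies by the peptidyl transferase centre, with a 2.36-fold rise, Mrpl24 (2.22-fold) and Mrpl1 (2.23-fold), and among those of the small subunit Mrps7 (2.66-fold) and Mrps28 (2.46-fold). Among large subunit proteins specific to mitochondria they were Mrps30 (2.52-fold), Mrpl44 (2.44-fold), Mrpl53 (2.24-fold), Mrpl37 (2.21-fold) and Mrpl51 (2.09-fold). Mrpl55, also of the large subunit, rose 2.21-fold. The small subunit proteins Mrps18b, Mrps35 and Mrps31, specific to mitochondria, made up the rest (2.49-fold, 2.27-fold and 2.18-fold). All had limma adjusted p values of at most 2.89e-05, the value of Mrpl1. Over the 77 members the interquartile range of the log2 fold change was 0.41 to 1.00, and the size of the change had little relation to the level: Spearman's rho between a member's mean level and its log2 fold change was -0.16, a description across genes that share their libraries.

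Against the trend, Mrpl52 and Mrps25 fell. Mrpl52 (chr14:54426909-54429750, plus strand), a mitochondria-specific large subunit protein, was at 129, 155 and 147 FPKM in Aclyf/f preadipocytes and at 127, 113 and 98.9 FPKM in Aclyf/f adipocytes. All 3 adipocyte libraries were below the preadipocyte libraries, by a narrow margin (log2 fold change -0.35, SE 0.10, adjusted p = 0.00881 by limma). The call was lost without Aclyf/f adipocyte library 3 (log2 fold change -0.25, limma adjusted p = 0.0502). Mrps25, a mitochondria-specific small subunit protein, went from 14.8, 13.7 and 15.1 FPKM to 10.9, 11.7 and 11.7 FPKM (log2 fold change -0.32, SE 0.07, adjusted p = 0.00132 by limma), again without overlap. Exons of Nr2c2 on the opposite strand cover 69.8% of the Mrps25 exons, so its level is uncertain.

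The promoters of the members that moved most with differentiation are shown to let their sequence be read beside these values. RefSeq windows of 250 bases before and 50 after the start (build GRCm38.p6, the same assembly as mm10) were at hand for 68 of the 77 members, 74 windows in all. Printed are the 4 largest rises and the largest fall with differentiation in Aclyf/f cells among members with a window. They are given 5′ to 3′ on the strand of the gene, with capitals marking exact matches, on either strand, to the cores ETS (CCGGAAG), NRF1 (GCGCA, any base, GCGC), YY1 (AAGATGG), ERR (AAGGTCA) and the E-box (CACGTG). The windows are chr11:120484387-120484686 on the plus strand for Mrpl12, chr9:98601630-98601929 on the minus strand for Mrps22, chr17:47368947-47369246 on the plus strand for Mrps10, chr11:115603890-115604189 on the plus strand for Mrps7 (which rose 2.66-fold) and chr14:54426659-54426958 on the plus strand for Mrpl52.
Mrpl12: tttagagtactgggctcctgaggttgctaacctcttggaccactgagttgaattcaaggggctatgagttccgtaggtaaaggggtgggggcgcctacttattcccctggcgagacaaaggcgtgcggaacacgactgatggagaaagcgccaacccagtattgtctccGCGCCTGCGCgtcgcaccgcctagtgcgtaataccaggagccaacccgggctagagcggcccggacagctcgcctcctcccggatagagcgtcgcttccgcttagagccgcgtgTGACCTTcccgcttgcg
Mrps22: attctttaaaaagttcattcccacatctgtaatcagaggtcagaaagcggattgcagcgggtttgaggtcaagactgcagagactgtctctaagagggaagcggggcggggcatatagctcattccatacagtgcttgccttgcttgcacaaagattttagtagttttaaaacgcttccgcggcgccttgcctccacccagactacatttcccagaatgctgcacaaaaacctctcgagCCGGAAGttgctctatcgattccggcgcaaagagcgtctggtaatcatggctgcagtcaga
Mrps10: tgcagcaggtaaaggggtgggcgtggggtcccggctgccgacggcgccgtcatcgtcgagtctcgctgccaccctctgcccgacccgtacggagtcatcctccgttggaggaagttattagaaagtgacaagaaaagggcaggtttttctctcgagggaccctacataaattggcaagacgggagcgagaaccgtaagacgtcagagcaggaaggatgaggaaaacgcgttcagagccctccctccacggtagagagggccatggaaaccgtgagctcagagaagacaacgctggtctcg
Mrps7: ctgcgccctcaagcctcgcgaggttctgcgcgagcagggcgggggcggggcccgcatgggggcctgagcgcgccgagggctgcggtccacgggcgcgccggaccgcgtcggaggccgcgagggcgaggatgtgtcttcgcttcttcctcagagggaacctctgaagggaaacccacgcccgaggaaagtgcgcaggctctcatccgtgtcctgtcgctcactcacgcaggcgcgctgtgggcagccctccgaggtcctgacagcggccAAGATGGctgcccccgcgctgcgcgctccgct
Mrpl52: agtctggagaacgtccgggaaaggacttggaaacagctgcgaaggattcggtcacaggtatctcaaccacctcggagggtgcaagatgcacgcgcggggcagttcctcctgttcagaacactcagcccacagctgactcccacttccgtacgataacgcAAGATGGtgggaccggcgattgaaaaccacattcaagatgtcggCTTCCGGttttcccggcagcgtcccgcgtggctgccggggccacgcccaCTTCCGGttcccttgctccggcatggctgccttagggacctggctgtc
The capitals are 1 NRF1 and 1 ERR core in Mrpl12, 1 ETS core in Mrps22, 1 YY1 core in Mrps7, and 1 YY1 and 2 ETS cores in Mrpl52, the member that fell. The Mrps10 window holds none of the 5. It begins downstream of the Mrps10 start that goes with the expression values (chr17:47368887), so bases before that start were not searched. Among the 68 members 36.8% had an ETS core, against 21% of 8957 tested genes with a window and 9.9% of all 27025 genes with one. An NRF1 core was in 19.1% of members, 12.1% of tested genes and 5.2% of all, and a YY1 core in 19.1%, 8.7% and 7.3%. An ERR core was in 5.9% of members, 3.7% of tested genes and 5.4% of all, and an E-box in 7.4%, 12.1% and 8.1%. The cores do not contain one another, and the median GC content was 58.5% for member windows, 61% for windows of tested genes and 52.7% for all windows. In all, 45 members had at least 1 of the 5 cores and 23 had none. A match is a run of letters in a window and no evidence of binding.

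Without Acly fewer members were called higher after differentiation, and their median rise was smaller. Comparing Acly-/- adipocytes with Acly-/- preadipocytes, 55 members rose and 1 fell by limma, 56 of 77 (72.7%), against 61.4% of all genes tested, 30.4% higher and 31% lower. The median log2 fold change was 0.39 over members and 0.00 over all genes tested, and 57 members had all 3 adipocyte libraries above and 3 all below the preadipocyte libraries, against 32.1% and 32.5% of all genes tested. By subunit, 36 Mrpl genes rose and none fell, and 19 Mrps genes rose and 1 fell. No member reached a rise of 1 on the log2 scale. Without Acly-/- preadipocyte library 3, the one that stood apart, 53 members rose and 1 fell. The 5 largest rises were those of Mrps22, Mrpl38, Mrpl1, Mrps18b and Mrps30, with log2 fold changes of 0.93, 0.91, 0.87, 0.85 and 0.85. Mrpl1 is the protein of the stalk beside the exit site for tRNA, and Mrps30, in spite of its symbol, is a large subunit protein. Mrps22 went from 17.3, 17.4 and 16.1 FPKM to 34.8, 29.5 and 35.6 FPKM, with no overlap (1.97-fold, limma adjusted p = 3.04e-07). Mrpl38 went from 18, 16.9 and 22.4 FPKM to 40.0, 33.5 and 36.3 FPKM (1.92-fold, limma adjusted p = 5.42e-06), so its groups were again apart. The 1 fall was that of Mrps25, 15.2, 13.9 and 13.7 FPKM against 12.8, 12.3 and 11.9 FPKM (log2 fold change -0.19, limma adjusted p = 0.0331). That call was lost without Acly-/- preadipocyte library 1 or Acly-/- adipocyte library 2 or 3 (adjusted p up to 0.126) and with every library scaled to the same FPKM sum (adjusted p = 0.16).

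Both differentiation comparisons called 52 members higher, 13 more were called higher in Aclyf/f cells and not in Acly-/- cells, and 3 in Acly-/- cells and not in Aclyf/f cells (Mrpl52, Mrps33 and Mrps36). These are 67.5%, 16.9% and 3.9% of members, and the same classes held 22.5%, 14% and 7.91% of all genes tested. Mrps33 lost that call without any 1 of 8 of the libraries (limma adjusted p up to 0.166), all but Acly-/- preadipocyte library 2, Aclyf/f adipocyte libraries 1 and 3 and Acly-/- adipocyte library 1. The 13 were Mrpl14, Mrpl19, Mrpl23, Mrpl3, Mrpl43, Mrpl48, Mrpl49, Mrps11, Mrps15, Mrps16, Mrps17, Mrps28 and Mrps6. Mrpl13, Mrpl18, Mrpl28, Mrpl33, Mrpl54, Mrps12, Mrps21 and Mrps24 were called in neither (10.4% of members, 15.6% of all genes tested); Mrpl33 and Mrps21, at the top of the order of levels, are among them, as is Mrps12, the protein of the decoding centre (30.1 ± 4.64 FPKM with and 25.4 ± 4.29 without Acly in preadipocytes, and 34.8 ± 5.8 with and 29.1 ± 3.32 without Acly in adipocytes). A call in one genotype and not in the other does not show that the genotypes differ, so the difference itself was tested as an interaction.

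The interaction, the change in Acly-/- cells minus that in Aclyf/f cells, was called in 34 of 77 members (44.2%), 33 of them negative and 1 positive by limma. Of all genes tested 50.2% were called, 23.7% positive and 26.4% negative. The median difference was -0.28 over members and -0.02 over all genes, and 63 of 77 members had the larger value in Aclyf/f cells. Without Acly-/- preadipocyte library 3 the counts were 32 negative and 1 positive. Among Mrpl genes 21 were negative and 1 positive, and among Mrps genes 12 were negative. The 5 largest negative differences were those of Mrps28 (-1.22, SE 0.14), Mrpl38 (-1.14, SE 0.15), Mrps7 (-1.09, SE 0.12), Mrpl12 (-1.04, SE 0.18) and Mrps34 (-0.98, SE 0.16), with limma adjusted p values between 8.81e-06 and 3.31e-04. The positive one was Mrpl52, 0.64 (SE 0.15, adjusted p = 0.003 by limma), which fell in Aclyf/f cells and in Acly-/- cells went from 131, 116 and 138 FPKM to 156, 146 and 172 FPKM. Its rise in Acly-/- cells (limma adjusted p = 0.0259) was lost without Acly-/- preadipocyte library 2 or Acly-/- adipocyte library 1 or 3 (adjusted p up to 0.109), while its interaction was called whichever library was left out (adjusted p at most 0.00951). Of the 33 negative members, 21 had been called higher in Acly-/- preadipocytes and 20 lower in Acly-/- adipocytes, each against Aclyf/f cells of the same stage. Those shares overlap by construction with the interaction, which is made from the same libraries: 9 of the 33 were called at both stages and 1 at neither.

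**Figure D2:**
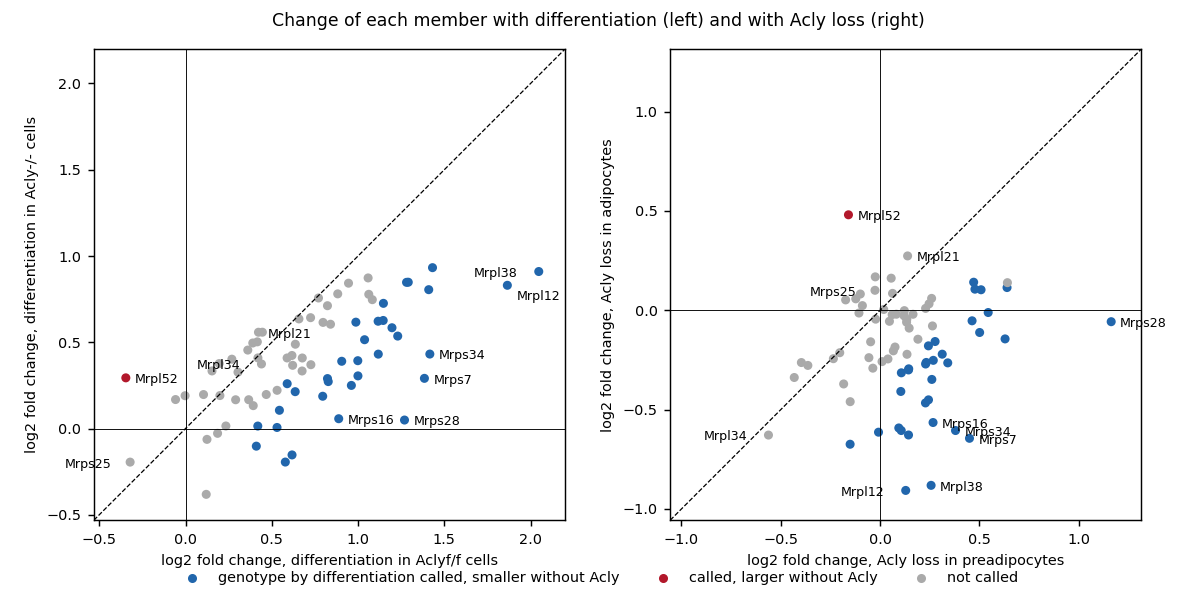
Log2 fold change of each of the 77 members with differentiation in Aclyf/f cells (x axis) against Acly-/- cells (y axis), left, and with Acly loss in preadipocytes (x axis) against adipocytes (y axis), right; the dashed line marks equal values and colour marks the interaction call. On the left 63 of 77 points lie below the line, with Mrpl38 and Mrpl12 farthest right, and on the right Mrps28 lies far to the right at a value near 0 for adipocytes; the comparisons share libraries, so the axes are not independent.

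In preadipocytes, before any cocktail was added, Acly loss moved fewer members and mostly upward. Comparing Acly-/- with Aclyf/f preadipocytes, 24 members were higher and 4 lower by limma, 28 of 77 (36.4%), against 42.2% of all genes tested, 19.7% higher and 22.4% lower. The share called was thus under that of all genes, while 24 of the 28 calls (85.7%) were higher, against 46.8% of calls over all genes. The median log2 fold change was 0.13 over members and -0.01 over all genes, and 26 members had all 3 Acly-/- libraries above and 8 all 3 below, against 23.2% and 26.7% of all genes tested. With each library scaled to the same FPKM sum, 14 members were higher and 10 lower, the median was 0.038, and the share of higher calls over all genes fell to 34.7%. Without Acly-/- preadipocyte library 3, 18 members were higher and 3 lower, with a median of 0.10.

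Mrps28 (chr3:8802146-8923857, minus strand), a small subunit protein related to bacterial ribosomal protein S1, had the largest rise. It was at 20.3, 24.7 and 25.2 FPKM in Aclyf/f preadipocytes and 52.6, 47.4 and 61 FPKM in Acly-/- preadipocytes, 2.29-fold higher with no overlap (log2 fold change 1.16, SE 0.10, adjusted p = 1.01e-06 by limma). Preadipocytes without Acly were near the adipocyte level of both genotypes, 60.4, 55.2 and 57.2 FPKM with Acly and 59, 52.3 and 54.6 FPKM without it. The 2 adipocyte groups overlapped (log2 fold change -0.06, limma adjusted p = 0.65), as did Acly-/- preadipocytes and adipocytes (log2 fold change 0.05, adjusted p = 0.692), while Aclyf/f cells rose 2.46-fold with differentiation. Mrps6, a small subunit protein kept from bacteria, was likewise lowest in Aclyf/f preadipocytes, at 70.5, 80.7 and 75.2 FPKM with Acly and 113, 113 and 126 FPKM without it in preadipocytes, and at 120.4, 106 and 113 FPKM with Acly and 108, 89.9 and 109.9 FPKM without it in adipocytes. Its rise with Acly loss in preadipocytes (log2 fold change 0.63, SE 0.09, adjusted p = 7.96e-05 by limma) separated the groups. Its 3 Acly-/- adipocyte libraries lay below its 3 Acly-/- preadipocyte libraries (log2 fold change -0.19, SE 0.09, adjusted p = 0.0716 by limma), a difference that was called with quantile normalization (limma adjusted p = 0.00595), with the same upper quartile (0.0362), without short RNAs and histones (0.0225) and without Acly-/- adipocyte library 3 (0.0456). Its level in Acly-/- against Aclyf/f adipocytes (log2 fold change -0.14, SE 0.09, adjusted p = 0.185 by limma) was called lower with the same FPKM sum (0.0267) and without short RNAs and histones (0.0284). Exons of Gm49711 and Slc5a3 on the same strand cover 19.9% and 10.4% of the Mrps6 exons, and Gm49711 has no row of its own. Mrpl48, a protein of the central protuberance, went from 27.2, 22.1 and 26.5 FPKM to 41.7, 39.8 and 37.9 FPKM (1.57-fold, limma adjusted p = 8.87e-05). Mrpl54 and Mrpl27, large subunit proteins, completed the 5 largest rises, 1.56-fold and 1.47-fold (adjusted p = 0.00659 and 5.85e-04 by limma); reads of Mrpl27 could be shared with 2 processed pseudogenes of at least 90.6% identity.

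The 4 members lower in Acly-/- preadipocytes were all large subunit genes. Mrpl34, kept from bacteria, was at 38.5, 38.4 and 38.3 FPKM in Aclyf/f and 28.3, 21.7 and 27.7 FPKM in Acly-/- preadipocytes, without overlap (log2 fold change -0.56, SE 0.12, adjusted p = 0.0016 by limma). The mitochondria-specific Mrpl41, Mrpl50 and Mrpl40 had log2 fold changes of -0.40, -0.36 and -0.20 (adjusted p = 0.00364, 0.013 and 0.0437 by limma). Mrpl40 lost its call without any 1 of 10 of the 12 libraries (adjusted p up to 0.157), all but library 1 of the Aclyf/f adipocytes and library 2 of the Acly-/- preadipocytes. Among genes known from human disease or from a set place in the structure, calls of a rise were also fragile. Mrps22 and Mrps34 lost theirs without Aclyf/f preadipocyte library 2 (adjusted p = 0.143 and 0.0759), as did Mrpl3, Mrps16 and Mrps35 (0.0551, 0.0975 and 0.066). Without Acly-/- preadipocyte library 3, Mrps16 (adjusted p = 0.0802) and Mrps34 (0.0636) were not called, and without Acly-/- preadipocyte library 1, Mrpl44 (0.052) and Mrps22 (0.0871) were not. Without Aclyf/f preadipocyte library 3, Mrpl3 (0.0852), Mrps10 (0.0516) and Mrps16 (0.0651) were not called, and Mrps22 was also lost without Aclyf/f preadipocyte library 1 (0.0609), Aclyf/f adipocyte library 2 (0.0513) or Acly-/- preadipocyte library 2 (0.0959). The calls of Mrps28, Mrps6, Mrpl48, Mrpl54, Mrpl27, Mrpl34 and Mrpl41 held with any library left out.

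After differentiation the direction was the opposite. Comparing Acly-/- with Aclyf/f adipocytes, 2 members were higher and 30 lower by limma, 32 of 77 (41.6%), against 54.8% of all genes tested, 25.6% higher and 29.2% lower. The median log2 fold change was -0.16 over members and -0.02 over all genes, and 35 members had all 3 Acly-/- libraries below all 3 Aclyf/f libraries and 4 all above, against 33.7% and 29.5% of all genes tested. By symbol, 19 Mrpl genes were lower and 2 higher, and 11 Mrps genes were lower and none higher. With each library scaled to the same FPKM sum, 40 members were lower and 1 higher, the median was -0.24, and the share of higher calls over all genes went from 46.7% to 36.4%. Adipocyte markers summed to less and preadipocyte markers to more in Acly-/- adipocytes, as given above, and the part of that difference in these results was not tested.

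Mrpl12 was at 200.3, 161 and 176 FPKM in Aclyf/f adipocytes and 96.6, 91.2 and 96.4 FPKM in Acly-/- adipocytes, 1.89-fold lower with no overlap (log2 fold change -0.91, SE 0.13, adjusted p = 4.04e-05 by limma). In preadipocytes the genotypes overlapped for this gene, 52.4, 48.1 and 44.5 FPKM against 51, 43.7 and 66.1 FPKM. Mrpl38 was at 40.0, 33.5 and 36.3 FPKM in Acly-/- adipocytes, 1.87-fold below its Aclyf/f level (log2 fold change -0.88, SE 0.11, adjusted p = 1.15e-05 by limma). For both genes the Acly-/- adipocyte libraries stayed above the preadipocyte libraries of either genotype. Mrpl51, a mitochondria-specific large subunit protein, went from 92, 77.8 and 72.2 FPKM to 49, 43.9 and 57.8 FPKM (1.61-fold lower, limma adjusted p = 1.01e-04). Mrps7, a small subunit protein of the head that binds its rRNA, went from 89.7, 80.0 and 80.2 FPKM to 50.8, 52.3 and 55.5 FPKM (1.57-fold lower, adjusted p = 3.11e-05 by limma). In preadipocytes it had gone the other way, 29.2, 32.3 and 32.3 FPKM in Aclyf/f and 43.3, 38.3 and 48 FPKM in Acly-/- cells (limma adjusted p = 9.61e-04), again with no overlap. Mrpl34 was lower at both stages, 58, 50.1 and 49.8 FPKM in Aclyf/f and 29.5, 32.4 and 39.8 FPKM in Acly-/- adipocytes (1.55-fold lower, limma adjusted p = 4.54e-04). Its interaction was not called (-0.07, SE 0.16), a difference between stages whose error leaves room for values of either sign. Mrpl52 was higher, 127, 113 and 98.9 FPKM against 156, 146 and 172 FPKM (1.39-fold, adjusted p = 0.00161 by limma), and so was Mrpl21, a large subunit protein kept from bacteria, 42.9, 37.6 and 35.6 FPKM against 48.4, 45.8 and 46.2 FPKM (1.21-fold, adjusted p = 0.00561). The other 25 falls were of 0.20 to 0.63 on the log2 scale; among them Mrps15 and Mrpl18, proteins kept from bacteria that bind rRNA, were lower in Acly-/- adipocytes (log2 fold change -0.46 and -0.37, limma adjusted p = 8.41e-04 and 0.00341). The call of Mrpl21 was lost with libraries scaled to the same FPKM sum (limma adjusted p = 0.0797).

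Taken by pattern over both stages, 9 members were called higher in Acly-/- preadipocytes and lower in Acly-/- adipocytes: Mrpl9, Mrpl19, Mrpl44, Mrps7, Mrps10, Mrps16, Mrps22, Mrps34 and Mrps35. That is 11.7% of members, and 4.75% of all genes tested had the pattern. The choice of pattern fixes the sign of their interaction as negative. All 9 were also called for it, which the choice makes likely. Mrps16, kept from bacteria and a human disease gene, was at 73.7, 61.9 and 65.6 FPKM in Aclyf/f preadipocytes and, just above these, at 77.1, 77.4 and 87.7 FPKM in Acly-/- preadipocytes. In adipocytes it was at 136, 119 and 119.6 FPKM with Acly and 87.2, 80.2 and 84.4 FPKM without, levels that overlapped those of Acly-/- preadipocytes (limma adjusted p = 0.579), although Aclyf/f cells rose 1.86-fold. Mrpl44, a large subunit protein with a fold related to ribonuclease III and mutated in human cardiomyopathy, went from 13.5, 13.9 and 14.1 FPKM to 34.1, 32.9 and 34.4 FPKM with differentiation in Aclyf/f cells. In Acly-/- cells it went from 17.6, 15.1 and 17.1 FPKM to 24.5, 24.9 and 24 FPKM, so both Acly-/- groups lay between the Aclyf/f groups, with no overlap between any of the 4. The adipocyte call was lost for Mrps22 without Acly-/- adipocyte library 2 (limma adjusted p = 0.0639) and for Mrps35 without Aclyf/f adipocyte library 2 (0.087) or Acly-/- adipocyte library 1 (0.055), and for Mrps10 without library 2 or 3 of the Aclyf/f or library 1 or 2 of the Acly-/- adipocytes (up to 0.103). With libraries scaled to the same FPKM sum the preadipocyte rise of 6 of the 9, Mrps16, Mrps35, Mrpl9, Mrpl44, Mrpl19 and Mrps22, was not called (limma adjusted p = 0.101, 0.12, 0.139, 0.164, 0.197 and 0.288). The preadipocyte call was lost for Mrpl9 without Aclyf/f library 1 or 3 or Acly-/- library 2 or 3 of that stage (limma adjusted p up to 0.126), and for Mrpl19 without Aclyf/f library 2 or 3 or Acly-/- library 1 or 2 (up to 0.135).

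The 4 members called lower at both stages were Mrpl34, Mrpl40, Mrpl41 and Mrpl50, all of the large subunit, which is 5.19% of members against 7.63% of all genes tested. Mrpl41 was 9.61 ± 0.978 FPKM in Aclyf/f and 7.84 ± 0.772 in Acly-/- adipocytes, groups that overlapped, and that call (adjusted p = 0.0267 by limma) was lost without library 1 or 2 of either adipocyte group (adjusted p up to 0.104). That of Mrpl40 was lost without the same 4 libraries or Acly-/- adipocyte library 3 (adjusted p up to 0.099), and that of Mrpl50 without any 1 of the 6 adipocyte libraries (up to 0.137). The calls of Mrpl34 at both stages held with any library left out.

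**Figure D3:**
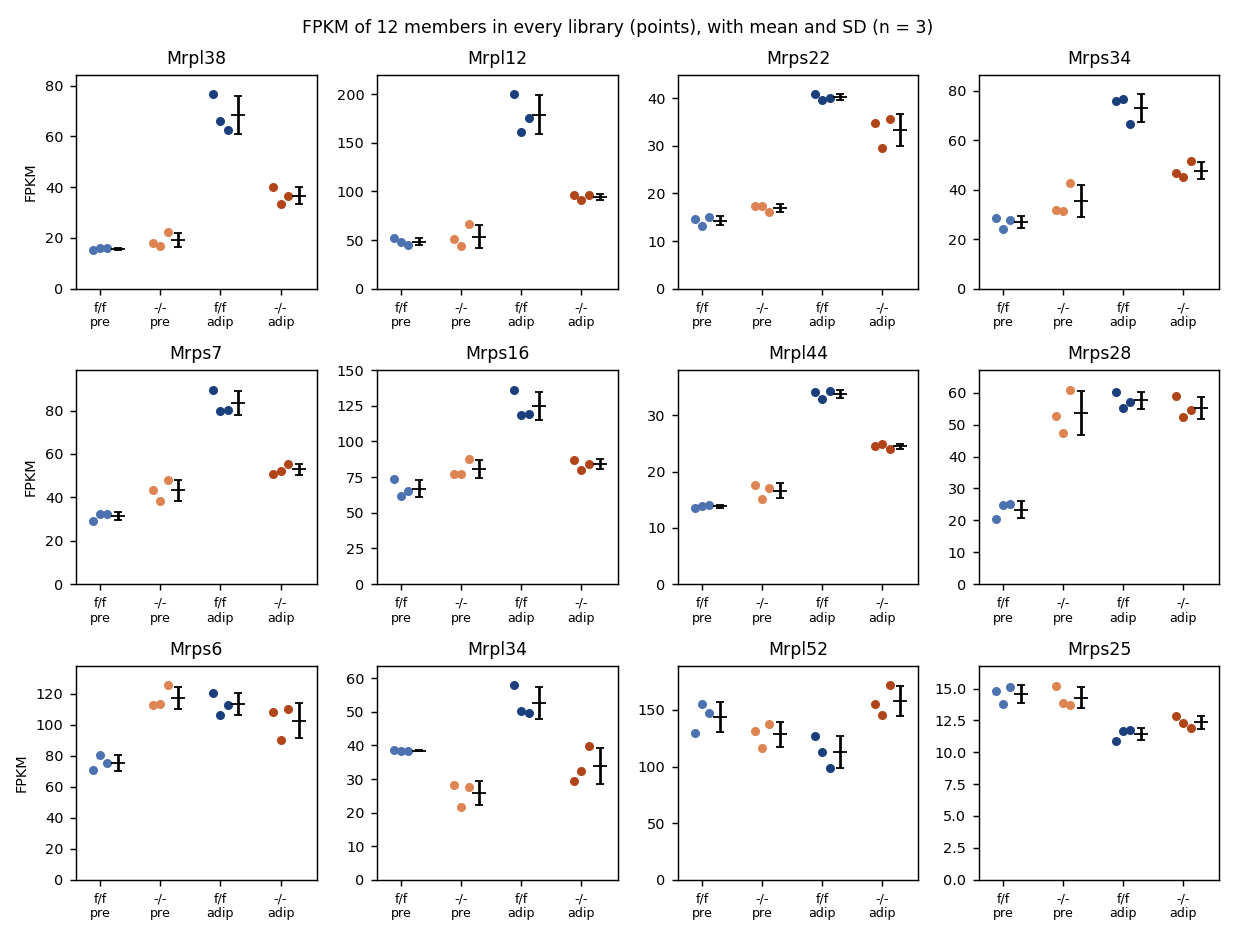
FPKM (y axis, linear, from 0) of 12 members in every library of the 4 groups (x axis; pre, preadipocyte; adip, adipocyte; f/f, Aclyf/f; -/-, Acly-/-), 1 point per library, with the mean and SD of 3 libraries beside them. Mrpl38 and Mrpl12 are high in Aclyf/f adipocytes, Mrps28 is low in Aclyf/f preadipocytes alone, Mrpl34 is lower without Acly at both stages, and Mrpl52 is lowest in Aclyf/f adipocytes.

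Sorted by what is known of each protein rather than by symbol, 28 members were put with large subunit proteins kept from bacteria. A further 22 were put with large subunit proteins specific to mitochondria, counting Mrps18a and Mrps30, which sit in the large subunit. Mrpl55 is among the 22 although it has a bacterial counterpart, and the medians with it moved were not computed. Another 16 are small subunit proteins kept from bacteria and 10 are small subunit proteins specific to mitochondria. With differentiation in Aclyf/f cells the median log2 fold change was 0.63 in the first class (24 higher), 0.75 in the second (20 higher, 1 lower), 0.63 in the third (13 higher) and 1.03 in the fourth (8 higher, 1 lower). In Acly-/- cells the same medians were 0.33, 0.46, 0.20 and 0.52, each below its value in Aclyf/f cells. In Acly-/- against Aclyf/f adipocytes they were -0.02, -0.23, -0.17 and -0.25, with 9, 10, 5 and 6 members lower. No test of a difference between these classes was made. The remaining member, Mrps36, carries a mitoribosomal symbol but is now known as a subunit of the alpha-ketoglutarate dehydrogenase complex. It was at 47.9 ± 8.07 FPKM with and 35.7 ± 9.24 without Acly in preadipocytes, and 61.5 ± 6.67 with and 48.7 ± 8.08 without Acly in adipocytes, and its 1 call, a rise in Acly-/- cells (limma adjusted p = 0.0389), was lost without Acly-/- preadipocyte library 1 or 3 or Acly-/- adipocyte library 1 or 3 (adjusted p up to 0.188).

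The related genes Mrps18a, Mrps18b and Mrps18c encode paralogs of 1 bacterial protein; Mrps18c takes its place in the small subunit, while Mrps18a and Mrps18b sit at sites found in mitochondria alone and are counted as specific to mitochondria. All 3 rose in both genotypes. With differentiation in Aclyf/f cells their log2 fold changes were 0.94, 1.29 and 0.62 (limma adjusted p = 4.96e-08, 5.42e-09 and 2.65e-04). In Acly-/- cells they were 0.84, 0.85 and 0.42. The interaction was called for Mrps18b (-0.44, SE 0.12, limma adjusted p = 0.00621) and not for Mrps18a (-0.10, SE 0.10) or Mrps18c (-0.19, SE 0.16). Of the other proteins of the large subunit stalk, Mrpl10, which anchors Mrpl12, was at 33.5 ± 1.94 FPKM with and 46.8 ± 3.38 without Acly in preadipocytes, and 50.9 ± 1.61 with and 56.2 ± 2.98 without Acly in adipocytes. Mrpl11, of the stalk base, was at 8.62 ± 0.728 FPKM with and 9.44 ± 0.355 without Acly in preadipocytes, and 13.9 ± 0.407 with and 13.7 ± 1.08 without Acly in adipocytes. Mrpl10 was called higher in Acly-/- preadipocytes (log2 fold change 0.47, SE 0.07, adjusted p = 1.83e-04 by limma), where Mrpl12 and Mrpl11 were not called (adjusted p = 0.438 and 0.253).

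The 77 genes lie on 17 chromosomes, at most 10 on one (chromosome 11), and all 77 were found on the same chromosome in RefSeq, 35 of them with the same lower coordinate. The start of 19 of them (24.7%) lies within 1000 bases of the start of a protein-coding gene on the opposite strand, against 7.2% of 21951 protein-coding genes in the GENCODE annotation. That background includes genes not expressed here, and the share among the genes tested was not computed. Such neighbours include Ndufs6, a respiratory complex I subunit, beside Mrpl36, and Sars2, the mitochondrial seryl-tRNA synthetase, beside Mrps12. Mrpl22, Mrpl23, Mrpl27, Mrpl42, Mrps10 and Mrps21 have processed pseudogenes of at least 90.6% identity over at least 50.1% of their length, and Mrpl53 is contained in the read-through gene Gm42688, so reads of these 7 could be split or shared.

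Lists of genes that work beside the members were counted in the same fit. The 6 mitoribosomal proteins listed under other symbols (Aurkaip1, Chchd1, Dap3, Gadd45gip1, Ict1 and Ptcd3) all rose with differentiation in Aclyf/f cells, and 3 rose in Acly-/- cells. Dap3, the GTP-binding protein of the small subunit, resembled Mrps28, at 16, 14.9 and 13.6 FPKM with Acly and 22.7, 25.4 and 24.4 FPKM without it in preadipocytes, and at 25.4, 22.3 and 22 FPKM with Acly and 24, 22.7 and 25.1 FPKM without it in adipocytes; the Aclyf/f preadipocyte libraries lay below all others, which overlapped. Aurkaip1 had the largest rise of the 6 (log2 fold change 1.07 in Aclyf/f and 0.56 in Acly-/- cells). Of 27 mitoribosome assembly factors, 18 rose and 1 fell in Aclyf/f cells, 16 rose and 3 fell in Acly-/- cells, and 13 were higher and 1 lower in Acly-/- than in Aclyf/f preadipocytes. Mpv17l2, an assembly factor of the inner membrane, went from 11 ± 2.12 to 42.6 ± 6.84 FPKM in Aclyf/f cells and from 18.6 ± 3.25 to 27.6 ± 2.54 in Acly-/- cells, with an interaction of -1.31 (limma adjusted p = 1.74e-04). Mterf4, which brings a methyltransferase to the assembling large subunit, was the one that fell in Aclyf/f cells, from 141 ± 12.7 to 28.3 ± 1.99 FPKM, while Acly-/- cells went from 84 ± 6.61 to 76.8 ± 5.8 (interaction 2.14, limma adjusted p = 2.53e-08). Of 18 mitochondrial translation factors 16 rose in Aclyf/f cells and 14 rose and 1 fell in Acly-/- cells; in adipocytes 6 were higher and 2 lower without Acly, counts that became 2 higher and 4 lower with libraries scaled to the same FPKM sum.

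Nuclear subunits of the respiratory chain and ATP synthase were picked by symbol, so the list also holds Atp5s and Atp5sl and lacks Cox4i1. Of the 74 tested, 71 rose and 1 fell with differentiation in Aclyf/f cells (median log2 fold change 0.90), and 65 rose in Acly-/- cells (0.58). In Acly-/- against Aclyf/f adipocytes, 2 were higher and 34 lower. The 81 tested proteins of the cytosolic ribosome went the other way with differentiation in Aclyf/f cells and with Acly loss in adipocytes. With differentiation 2 rose and 53 fell in Aclyf/f cells (median -0.35), 6 rose and 5 fell in Acly-/- cells (median -0.01), and 66 were higher and none lower in Acly-/- than in Aclyf/f adipocytes (median 0.47). The interaction was positive in 40 cytosolic and 1 mitochondrial ribosomal genes and negative in 0 and 33. It was positive in 1 and negative in 33 of the 74 respiratory chain subunits, and positive in 2 and negative in 15 of 27 assembly factors. With quantile normalization the cytosolic counts in Acly-/- cells became 19 higher and 7 lower and the median 0.06, and with the same FPKM sum the median there was 0.01; quantile normalization also gave 7 higher and 41 lower in Aclyf/f cells (median -0.21) and 46 higher in Acly-/- adipocytes (median 0.24), with the signs as given under each of 5 other scalings. In Acly-/- against Aclyf/f preadipocytes 10 cytosolic genes were higher and 3 lower (median 0.11), the same direction as the members. Many cytosolic ribosomal proteins have processed pseudogenes, so single values of that list are uncertain.

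**Figure D4:**
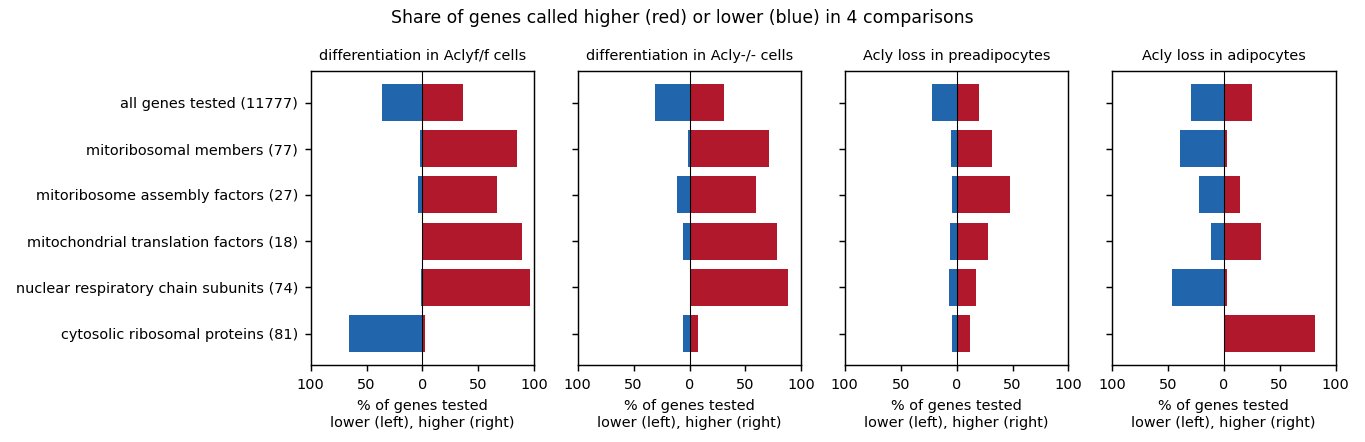
Percent of the genes tested (x axis) that were called higher (red, to the right) or lower (blue, to the left) in 4 comparisons, for all genes tested and 5 gene lists (y axis, number tested in brackets). Members, assembly factors, translation factors and respiratory chain subunits lie to the right in both differentiation panels, while cytosolic ribosomal proteins lie to the left in Aclyf/f cells and to the right for Acly loss in adipocytes.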

How the data were processed

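The deposited table holds FPKM per gene for 12 libraries in 24341 rows, made by the authors from total RNA isolated with Trizol and an Illumina TruSeq kit, per the labels' protocols. Tools listed in the submitters' processing notes are Cufflinks 2.2.1, Bowtie2 2.2.6 and bcl2fastq, with the build mm10 and no roles; how strand was handled, which annotation was used and how rows were filtered are not stated there. The summed FPKM differs between libraries, from 498316 to 608176, while median-of-ratios size factors computed from the values are 0.99 to 1.01, so the libraries share a scale for the typical gene and not a common total.

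The 11777 genes that reached 1 FPKM in 3 or more of the 12 libraries entered the fit (12564 did not), as log2(FPKM + 1), in limma 3.58.1 (R 4.3.3), with a variance trend and 1 mean for each of 4 groups. The 5 contrasts were Acly loss in preadipocytes and in adipocytes, differentiation in Aclyf/f and in Acly-/- cells, and the interaction. Adjustment was by Benjamini-Hochberg within a contrast, over every gene in the fit, and a call is an adjusted p under 0.05. Log2 fold changes on this scale understate changes of low genes; folds are ratios of mean FPKM. Relative depth came from the steps between values under 0.3 FPKM. The fit was tested on simulated data. Named were, by rule, the 5 largest rises and falls among calls per contrast, the 5 highest and 5 lowest levels, and members with a set role. Mrps28 as a level, Mrpl10 and Dap3 were described after their values were seen. Mrps15 and Mrpl18, given among the falls in Acly-/- adipocytes, were named outside that rule. The members and the gene lists were chosen with earlier results of these data known.

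Positions are mm10 counted from 1, from the table, with exons from GENCODE vM21 and copies found with BLAST 2.17.0 (at least 90% identity over at least 50% of the length). Promoters are from RefSeq; protein sequences were not used here. Tables and figures were made in Python 3.11.15 with matplotlib 3.10.9, scipy 1.17.1, pandas 2.3.3 and numpy 2.4.6. Alternatives changed the pseudocount, filter, scaling, variance model, libraries in the fit, replicate block and each library in turn.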

Additional observations from a re-analysis of the deposited data

Results flagged for a closer look

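The change with differentiation differed between genotypes, by the interaction of the limma fit, in 34 of 77 members (44.2%). Of all genes tested, 50.2% were called, so the share of members was not above the background. The differences below are log2 fold change in Acly-/- cells minus that in Aclyf/f cells, with 3 libraries in each of 4 groups. Those under an adjusted p of 0.05 among members named for this contrast or for a set role were Mrps28 (-1.22), Mrpl38 (-1.14), Mrps7 (-1.09), Mrpl12 (-1.04), Mrps34 (-0.98), Mrps16 (-0.83), Mrps6 (-0.77), Mrpl44 (-0.69), Mrps35 (-0.52), Mrps22 (-0.50) and Mrps18b (-0.44), all with the lower value in Acly-/- cells, and Mrpl52 (0.64), with the higher value there. These 12 calls held in each alternative and with any single library left out. What produced the differences was not tested.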

How the results depend on the processing

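No called value of a member and no summary of the members changed sign under any alternative; of the 168 values of members that were not called, 66 did, none of them with a call. Of the results that summarise the members, 233 values stayed near those reported and 5, all of them medians, moved by more than the spread between libraries. Counts of calls were held to a looser limit, a set ratio with the main direction kept, and they did move. For Acly loss in preadipocytes, 28 calls became 24 with the same FPKM sum (14 higher, 10 lower). They became 19 with no filter, and also with only the 6 libraries compared. For Acly loss in adipocytes, 32 calls became 41 with the same FPKM sum and 26 with no filter. With the same FPKM sum, the median for Acly loss in preadipocytes was 0.038 and in adipocytes -0.24. Without rows of short RNAs and histones (recognised by symbol) and with the same sum, it was -0.23 in adipocytes. For differentiation in Aclyf/f cells it was 0.59 with quantile normalization and 0.58 with the same upper quartile, a scaling chosen after seeing the data. The cause was not tested. Of values of single named members, 2287 stayed, 75 lost a call and 19 gained one. With 1 library left out, calls of members ranged from 20 to 28 for Acly loss in preadipocytes, 24 to 34 in adipocytes, 65 to 68 and 47 to 57 for differentiation in Aclyf/f and Acly-/- cells, and 30 to 38 for the interaction; 15 of 28, 22 of 32, 64 of 67, 42 of 56 and 30 of 34 calls held in all 12 such fits. No pairing of the libraries by replicate number was seen: deviations of same-numbered libraries correlated at -0.41 to 0.15 (18 pairs) and 0 of 12 libraries were closest to one of their own number. Pairs from different groups with other numbers correlated at -0.17 to 0.42 (36 pairs). Such correlations cannot show whether libraries shared a culture or batch. With the number as a replicate block, members called were 25, 30, 67, 53 and 33 in the same order. Depth is known as a ratio alone, so no counting error could be given.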

Other observations

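Factors that other work links to mitoribosomal genes were listed with the members, 17 in all, of which 14 could be tested. In Aclyf/f cells 5 rose and 5 fell with differentiation, and in Acly-/- cells 6 rose and 5 fell. Ppargc1b, a coactivator of mitochondrial genes, was at 0.0825 ± 0.0647 FPKM with and 0.125 ± 0.024 without Acly in preadipocytes, and 3.45 ± 0.421 with and 1.16 ± 0.107 without Acly in adipocytes. It was under the limit of 1 FPKM in preadipocytes and entered the fit through adipocyte libraries alone, so its interaction is not given. Esrra, the nuclear receptor it works with, was at 10.6 ± 0.0355 FPKM with and 11.5 ± 2.32 without Acly in preadipocytes, and 22 ± 2.0 with and 15.9 ± 1.36 without Acly in adipocytes. A link of either gene to the members was not tested. Nrf1, whose core was counted in the promoters, rose with differentiation in Aclyf/f cells (log2 fold change 0.30, limma adjusted p = 0.00145) and fell in Acly-/- cells (-0.27, adjusted p = 0.00431). Yy1 was lower in Acly-/- than in Aclyf/f preadipocytes, 16.4, 19.2 and 16.9 FPKM against 28.8, 21.9 and 28.8 FPKM (limma adjusted p = 5.47e-04), and Gabpa, the DNA-binding subunit of an ETS-family factor, fell slightly with differentiation in Aclyf/f cells (log2 fold change -0.28, limma adjusted p = 0.0361). Of 17 genes that maintain or transcribe mitochondrial DNA, 11 rose and 2 fell in Aclyf/f cells, and 1 was called in Acly-/- against Aclyf/f preadipocytes. Polrmt, the RNA polymerase of mitochondria, rose in Aclyf/f cells (log2 fold change 0.64, limma adjusted p = 3.63e-04), and Tfam, which packages mitochondrial DNA, was not called in any of the 5 contrasts (adjusted p at least 0.09).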
